A study of Mus musculus with 12 samples.

Results

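Knockout saline libraries were compared with wild-type glycine libraries, a pair of groups that share neither genotype nor treatment, to tell which macrophage, antibody and stromal transcripts the groups hold at like levels and which they do not. The members were the 3 knockout saline libraries and the 3 wild-type glycine libraries, 6 of the 12 libraries of the series, taken by their labels. Knockout saline libraries came from mice with a global knockout of Glra2 (Glra2-/-), infused with Ang II and injected intraperitoneally with saline. Wild-type glycine libraries came from WT mice, infused with Ang II and injected intraperitoneally with 800 mg/kg of glycine per day. Ang II was therefore common to both groups, and a difference between them cannot be told apart into a part from the genotype and a part from glycine. The remaining 6 libraries, knockout glycine and wild-type saline (n = 3 each), entered the filter on low counts, the scaling of the libraries and the shared estimate of the spread. They also gave the levels printed for context. With all 4 groups 13928 genes passed the filter, and with only the 2 compared groups 12955 did. By the labels, knockout glycine 4 and 6 had 800 mg/kg of glycine per day and knockout glycine 5 had 80 mg/kg per day, so means given for knockout glycine mix both labelled doses. Strain, age and sex are not in the labels, nor is whether the libraries of a group are separate animals. The sample labels give endothelial cells of the aorta as the source of the RNA, which was read by bulk RNA-seq of captured mRNA.

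Angiotensin II raises blood pressure, and in the vessel wall it is known for drawing in monocytes and for scarring of the adventitia, the outer coat. Resident macrophages of the adventitia carry the mannose receptor and the CD163 scavenger receptor, while cells newly derived from blood monocytes carry more chemokine receptor, MHC class II and inflammatory transcripts. Plasma cells secrete antibody, whose class is set by the heavy-chain constant region, and fibroblasts and smooth muscle cells make the collagens, proteoglycans and elastic fibres of the wall. Glra2 encodes a ligand-binding subunit of the glycine receptor, a chloride channel best known from neurons.

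Glra2 (ENSMUSG00000018589) had 0 counts in all 12 libraries, wild-type ones included, so its level does not check the genotype labels. Library totals were 17708384, 18603677 and 24292383 counts in knockout saline 1, 2 and 3, against 14458854, 17466021 and 16579090 counts in wild-type glycine 4, 5 and 6. Endothelial transcripts were present in every one of the 6 libraries. Pecam1, the adhesion molecule CD31, was at 84.2, 82.0 and 101 CPM (counts scaled to the size of the library) in knockout saline, against 104, 143 and 149.9 CPM in wild-type glycine. Cdh5, the junction protein VE-cadherin, was at 15.2, 6.13 and 6.92 CPM in knockout saline, against 14.7, 13.8 and 14.3 CPM in wild-type glycine. Neither met the adjusted threshold (log2 difference -0.57 ± 0.21 SE, adjusted p = 0.151, and -0.60 ± 0.43, adjusted p = 0.562, edgeR). Macrophage and fibroblast transcripts, given below, were present in all 6 libraries as well, so the RNA was not from endothelial cells alone. Of red-cell transcripts, haemoglobin genes held 2.98%, 6.41% and 4.14% of counts in knockout saline, against 2.43%, 5.13% and 1.24% in wild-type glycine. Mitochondrially encoded genes held 50.4%, 34.8% and 34.4% of counts in knockout saline, against 38.5%, 30.6% and 36.4% in wild-type glycine, and knockout saline 1 stands apart by that share. In such bulk samples, fewer cells of a type and less RNA per cell cannot be told apart.

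Of 13928 genes tested, 301 (2.16%) were higher and 486 (3.49%) were lower in knockout saline (edgeR quasi-likelihood test, Benjamini-Hochberg adjusted p below 0.05), 5.65% in either direction. Leaving out a library moved these counts by over 1.5 times in some cases: the genes that differ numbered 490 without knockout saline 2 and 507 without knockout saline 3, and the higher genes alone numbered 164, 171 and 182 without knockout saline 2, knockout saline 3 and wild-type glycine 6. On the deposited FPKM values the higher genes made up 23.7% of calls (pseudocount 1) or 22.2% (pseudocount 0.1), where they made up 38.2% on counts. To say that a level was held, a second rule was needed, because a missed threshold does not show likeness. A gene is called within 2-fold here when the 95% interval of its log2 difference lies between -1 and 1. By that rule 3651 genes (26.2%) were within 2-fold, 35 of them with an adjusted p below 0.05 as well. For 9525 genes (68.4%) neither rule gave an answer, so the data leave their difference undetermined at this size of group.

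The 3 kinds of transcript fell out differently. Of 97 macrophage-type genes, 32 were higher, 5 were lower and 23 were within 2-fold, with a median log2 difference of 0.71 against 0.01 over all genes tested. Apoe, Cd9 and Lgmn are counted both as called and as within 2-fold. Of 130 stromal genes tested (of 141 listed), 58 were lower, 5 were higher and 12 were within 2-fold, with a median of -1.08. Of 161 antibody and B-lineage genes tested (of 258 listed), 6 were higher, 4 were lower and 8 were within 2-fold, with a median of -0.04. Read against the 26.2% of all genes, the share within 2-fold was 23.7% for the macrophage genes, 9.23% for the stromal genes and 4.97% for the antibody genes. Each list count below is to be set beside the 2.16% of all genes that were higher and the 3.49% that were lower. For 143 of the antibody genes neither rule gave an answer, most of them scarce variable segments.

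**Figure D1:**
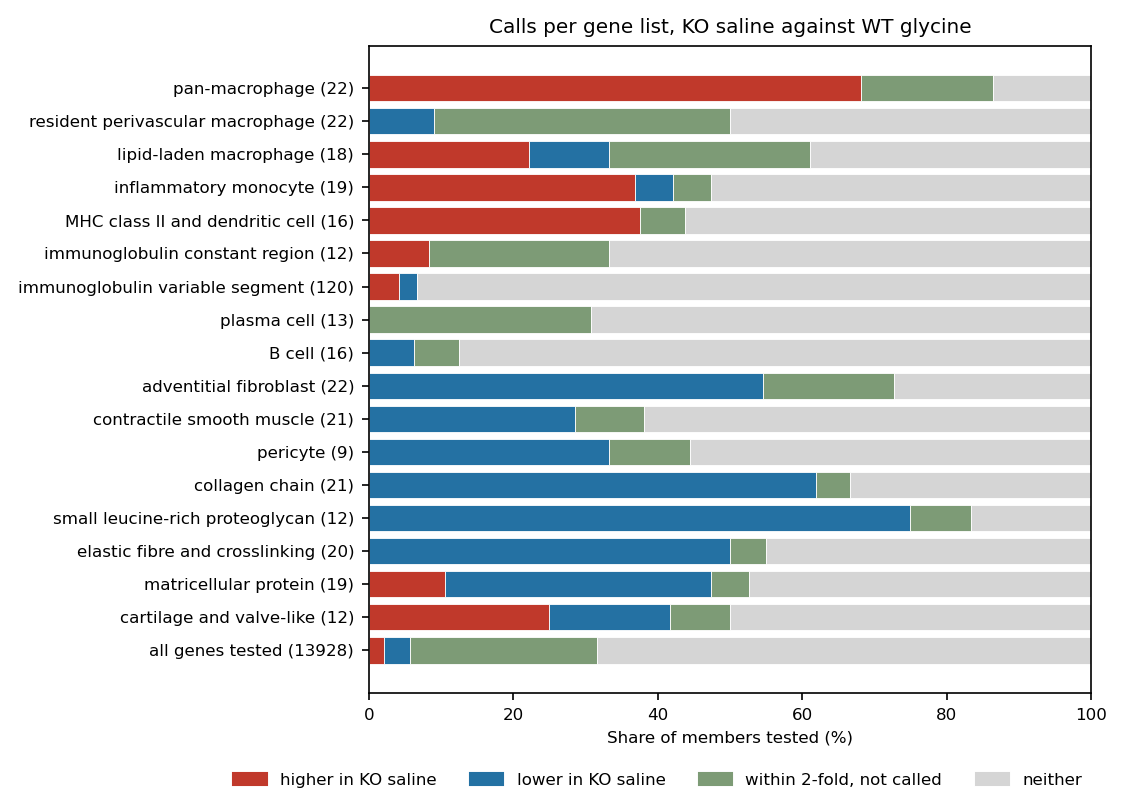
Each bar is 1 gene list (number of members tested in brackets), divided along the x axis into the share of members (%) higher in knockout saline, lower in knockout saline, within 2-fold without being called, or neither. Red fills 68.2% of the pan-macrophage bar, blue fills 61.9% of the collagen bar, and the resident macrophage bar holds no red and 40.9% green.

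General macrophage transcripts were higher in knockout saline, and those of resident macrophages were not. Of 22 pan-macrophage genes, 15 were higher, none was lower, and the list's median log2 difference was 0.92. In 21 of the 22 the knockout saline libraries all lay above the wild-type glycine libraries, where 12.5% of all genes did so. Ctss, the lysosomal protease cathepsin S that trims the invariant chain, was at 1938, 2337 and 2272 CPM in knockout saline, against 787, 758 and 777 CPM in wild-type glycine. Its groups did not overlap (95% interval of the log2 difference 1.17 to 1.82, adjusted p = 6.01e-05). Lyz2, the macrophage lysozyme, was at 9750, 14680 and 10870 CPM in knockout saline, against 5853, 5803 and 5440 CPM in wild-type glycine (log2 difference 1.05 ± 0.18, adjusted p = 0.00225). Mpeg1, the pore-forming protein perforin-2, was at 182, 276 and 244 CPM in knockout saline, against 72.1, 82.0 and 87.0 CPM in wild-type glycine (log2 difference 1.54 ± 0.22). Fcgr3, a low-affinity receptor for IgG, and Cd53, a leukocyte tetraspanin, were higher by 0.94 ± 0.14 and 0.92 ± 0.14 on the log2 scale, with adjusted p = 0.000766 for each. All of these 5 kept an adjusted p below 0.05 with any 1 of the 6 libraries left out.

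Ms4a7, a membrane protein of macrophages in the same list, differed little. It was at 309, 262 and 367 CPM in knockout saline, against 381, 253 and 297 CPM in wild-type glycine, and the groups overlap fully. Its log2 difference was 0.01 ± 0.18, with a 95% interval of -0.37 to 0.39. C1qc, a chain of the complement component C1q, was within 2-fold without overlap, at 1199, 1253 and 1224 CPM in knockout saline, against 745, 913 and 916 CPM in wild-type glycine (interval 0.14 to 0.88). The number within 2-fold in this list is unsteady, being 5 with all libraries and 2 without wild-type glycine 6, 3 without knockout saline 1 and 3 without knockout saline 2.

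Promoters of a pair of the higher genes are shown for the letters GAGGAAGT, the core read by PU.1, an ETS-family factor of myeloid cells. Only windows that hold a match could be shown, so a match in these windows is not a result. Both windows are RefSeq sequence of build GRCm38.p6, run from 250 bases before to 50 bases after the annotated start, and are printed 5′ to 3′ on the gene's strand. The capitals mark a match, which in both lies on the opposite strand and reads ACTTCCTC. The Ctss window is chr3:95526536-95526835 on the plus strand, and the Cd53 window is chr3:106790100-106790399 on the minus strand.
Ctss: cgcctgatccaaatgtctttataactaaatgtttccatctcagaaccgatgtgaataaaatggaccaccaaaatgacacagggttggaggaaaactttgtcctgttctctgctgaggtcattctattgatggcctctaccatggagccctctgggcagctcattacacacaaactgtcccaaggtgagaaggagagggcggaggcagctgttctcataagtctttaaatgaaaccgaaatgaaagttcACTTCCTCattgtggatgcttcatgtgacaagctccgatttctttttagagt
Cd53: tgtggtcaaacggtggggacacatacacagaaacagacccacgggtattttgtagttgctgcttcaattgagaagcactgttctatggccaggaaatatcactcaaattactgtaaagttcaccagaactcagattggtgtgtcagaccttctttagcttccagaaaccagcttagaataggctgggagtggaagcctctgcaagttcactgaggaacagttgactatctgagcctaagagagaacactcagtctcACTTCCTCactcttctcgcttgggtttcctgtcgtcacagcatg
GAGGAAGT, on either strand, was present in the windows of 3.69% of the 27025 genes of the promoter table and of 3.85% of the 10703 tested genes matched by symbol. It was present for 22 of 231 matched genes that were higher (9.52%), for 6 of 359 that were lower (1.67%) and for 113 of 2893 within 2-fold (3.91%). Of 17 matched pan-macrophage genes 3 had it, as did 3 of 17 matched resident macrophage genes. A match is a description of the letters and does not show binding. In both printed windows the match did not overlap the other motifs searched, and other windows were not checked for this.

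Resident perivascular macrophage transcripts had a median difference near 0 as a list, with members on both sides. Of its 22 genes edgeR called none higher and 2 lower (4 each way at an unadjusted p below 0.05), and DESeq2 called 1 higher. Within 2-fold were 9 (40.9%, against 26.2% of all genes), and for 11 neither rule gave an answer. In 5 genes the knockout saline libraries all lay above, and in 5 all below (12.5% of all genes each way). Ccl8, a chemokine among the list's most abundant members, could not be placed (95% interval -1.18 to 0.03). The list's median log2 difference was 0.07. On log2(FPKM + 1) that median was -0.13, where the median of all genes was -0.116, so no direction is given for the list. The mean log2(CPM + 1) of the list was 6.53, 6.34 and 6.50 in knockout saline, against 6.50, 6.36 and 6.52 in wild-type glycine. These ranges overlap, whereas the same mean for the pan-macrophage list was 8.92 to 9.12 in knockout saline, against 7.98 to 8.12 in wild-type glycine. Selenop, the selenium carrier selenoprotein P, was at 1922, 1354 and 1726 CPM in knockout saline, against 1842, 1580 and 1751 CPM in wild-type glycine (log2 difference -0.05 ± 0.15, interval -0.36 to 0.26). Cbr2, a carbonyl reductase, was at 371, 246 and 311 CPM in knockout saline, against 332, 308 and 312 CPM in wild-type glycine (interval -0.44 to 0.36). Pf4, a chemokine shared with platelets, was at 162, 134 and 165 CPM in knockout saline, against 156, 138 and 143 CPM in wild-type glycine (interval -0.30 to 0.46). In all 3 genes the groups overlap and the interval stayed within 2-fold with any 1 library left out.

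The remaining members within 2-fold were named after their values were seen. Mrc1, the mannose receptor, was at 359, 274 and 396 CPM in knockout saline, against 339.8, 283 and 280.4 CPM in wild-type glycine (interval -0.22 to 0.60). Cd163, the haemoglobin scavenger receptor, was at 111, 119.7 and 96.6 CPM in knockout saline, against 101, 75.7 and 86.9 CPM in wild-type glycine (interval -0.09 to 0.72). Lyve1, the hyaluronan receptor, Fcna, the lectin ficolin A, Clec10a, a galactose lectin, and F13a1, the coagulation factor XIII A chain, complete the 9. F13a1 is the weakest of them, leaving the margin in 4 of the 6 fits that omit a library. Both called members encode secreted ligands. Igf1, insulin-like growth factor 1, was at 202, 139.8 and 188 CPM in knockout saline, against 455, 340.4 and 377 CPM in wild-type glycine (log2 difference -1.15 ± 0.16, adjusted p = 0.000656). Gas6, a ligand of TAM receptors that serves the uptake of dying cells, was at 156, 139 and 192 CPM in knockout saline, against 241, 384 and 424 CPM in wild-type glycine (log2 difference -1.11 ± 0.20, adjusted p = 0.00311). Both genes are also made by fibroblasts, whose transcripts were lower as described below, and the part of those cells in the difference was not tested.

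**Figure D2:**
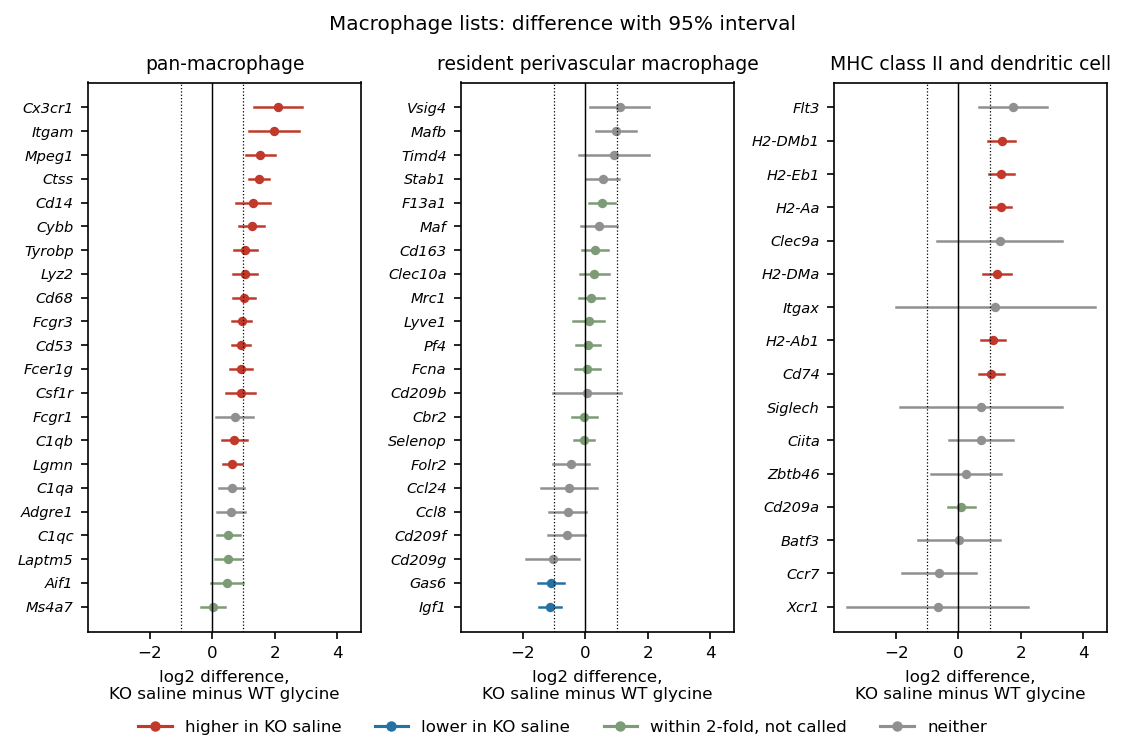
Log2 difference (knockout saline minus wild-type glycine, x axis) of each member of 3 macrophage lists, with its 95% interval. Dotted lines mark 2-fold in either direction. The pan-macrophage points lie right of 0 from Ms4a7 at 0.01 upward, while the resident macrophage points fall on both sides of 0 with a median of 0.07.

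Genes of lipid handling and scarring macrophages split within the list. Of its 18 genes, 4 were higher, 2 were lower and 7 were within 2-fold. The 2 lower genes also lie within 2-fold and are counted among the 7. Spp1, the secreted phosphoprotein osteopontin, was at 1332, 820.3 and 2559 CPM in knockout saline, against 164, 140.1 and 131 CPM in wild-type glycine. Its lowest knockout saline library was far above its highest wild-type glycine library (log2 difference 3.44 ± 0.30, adjusted p = 3.49e-05). Plin2, the coat protein of lipid droplets, was at 670.4, 952 and 757 CPM in knockout saline, against 294, 258 and 269.8 CPM in wild-type glycine (log2 difference 1.53 ± 0.15, adjusted p = 5.66e-05). Lgals3, the lectin galectin-3, was higher by 1.57 ± 0.19 on the log2 scale (adjusted p = 0.000225). The fourth was the lipid receptor Trem2, named to complete the count, higher by 1.36 ± 0.30 with all libraries (adjusted p = 0.0151), a call lost without wild-type glycine 4, wild-type glycine 5 or knockout saline 3 (adjusted p = 0.0623, 0.0582 and 0.0688).

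Apoe, a lipid-carrying apolipoprotein, moved the other way, at 3042, 2501 and 2476 CPM in knockout saline, against 4550, 4199 and 4206 CPM in wild-type glycine. The groups do not overlap (log2 difference -0.69 ± 0.14, adjusted p = 0.0071, and 0.0508 without knockout saline 3). Cd9, a tetraspanin, was the other lower member (-0.60 ± 0.13, adjusted p = 0.0104, and 0.0634 and 0.0652 without knockout saline 2 and knockout saline 3). Ctsb, the lysosomal protease cathepsin B, was within 2-fold, at 2647, 2985 and 3274 CPM in knockout saline, against 2006, 2300 and 2182 CPM in wild-type glycine (interval 0.18 to 0.74).

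Inflammatory monocyte genes were higher in knockout saline in 7 of 19 cases (36.8%, against 2.16% of all genes) and lower in 1 (5.26%, against 3.49%), with a median log2 difference of 0.98. Within 2-fold was 1 (5.26%, against 26.2%), and none without wild-type glycine 4. Without wild-type glycine 5 the higher genes numbered 4. Arg1, arginase 1, which competes with nitric oxide synthases for arginine, was at 34.3, 178 and 86.4 CPM in knockout saline, against 1.76, 9.43 and 5.49 CPM in wild-type glycine. Chil3, the chitinase-like protein Ym1, was at 156, 442 and 268 CPM in knockout saline, against 25.2, 30.0 and 24.2 CPM in wild-type glycine. Il1b, the cytokine interleukin 1 beta, was at 144, 312 and 211 CPM in knockout saline, against 55.1, 63.2 and 53.2 CPM in wild-type glycine. None of the 3 genes overlapped between groups, and knockout saline 2 was the highest library in each. The log2 differences were 4.15 ± 0.60 for Arg1 (adjusted p = 0.00164), 3.45 ± 0.34 for Chil3 (adjusted p = 6.97e-05) and 1.96 ± 0.30 for Il1b (adjusted p = 0.00141). Clec4e, the Mincle receptor for mycobacterial and damaged-cell lipids, was higher by 2.64 ± 0.33 (adjusted p = 0.000395). Ccr2, the receptor that brings monocytes to tissue, was higher by 0.98 ± 0.22 (adjusted p = 0.0133), which was above 0.05 without wild-type glycine 5 (0.0658) and without knockout saline 3 (0.0554). The lower member was Ccl2, its ligand, named to complete the count, at 81.8, 87.0 and 99.8 CPM in knockout saline, against 240.3, 131 and 152 CPM in wild-type glycine (log2 difference -0.96 ± 0.24, adjusted p = 0.0284). That call was lost without wild-type glycine 4 (adjusted p = 0.112), knockout saline 1 (0.0955), knockout saline 2 (0.105) or knockout saline 3 (0.0615).

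Neutrophil transcripts moved with these genes. Of 17 neutrophil genes 5 were higher (29.4%, against 2.16% of all genes). None was lower or within 2-fold (26.2% of all genes were within), and for 12 neither rule gave an answer. The mean log2(CPM + 1) of the list was 4.03 to 4.38 in knockout saline, against 2.39 to 3.17 in wild-type glycine. Mmp8, neutrophil collagenase, was at 73.6, 86.7 and 76.3 CPM in knockout saline, against 3.80, 24.6 and 11.2 CPM in wild-type glycine (log2 difference 2.57 ± 0.47, adjusted p = 0.00483). Cxcr2, the chemokine receptor of neutrophils, was at 25.2, 39.7 and 30.7 CPM in knockout saline, against 4.27, 11.7 and 7.65 CPM in wild-type glycine (log2 difference 2.01 ± 0.36, adjusted p = 0.00405). Both calls stood with any 1 library left out, while the other 3, S100a9, S100a8 and Csf3r, were lost without wild-type glycine 6. The list's count was then 2, and it was 3 without knockout saline 2 and 3 without knockout saline 3. The granule gene Mpo, chosen after its values were seen, was at 0 in all 3 wild-type glycine libraries, against 5.50, 5.01 and 2.87 CPM in knockout saline. The part of neutrophils in the higher Il1b, Chil3 and Clec4e was not tested.

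Genes of antigen presentation by MHC class II were higher in knockout saline. H2-Aa, the alpha chain of I-A, was at 2867, 2569 and 2328 CPM in knockout saline, against 993, 987 and 1049 CPM in wild-type glycine. The groups do not overlap (log2 difference 1.36 ± 0.16, adjusted p = 0.00015). Cd74, the invariant chain that class II molecules carry until cathepsin S cuts it, was at 28350, 23130 and 20560 CPM in knockout saline, against 12970, 11170 and 10510 CPM in wild-type glycine (log2 difference 1.06 ± 0.19, adjusted p = 0.00315). H2-Ab1 and H2-Eb1, beta chains, and H2-DMb1, which loads peptide, were higher by 1.10 ± 0.18, 1.38 ± 0.19 and 1.38 ± 0.20, with adjusted p = 0.00176, 0.00059 and 0.000691. In all, 6 of the 16 genes of the MHC class II and dendritic cell list were higher and none was lower, the sixth being H2-DMa. The count of higher genes was 6 whichever of the 6 libraries was left out. Cd209a, a lectin of monocyte-derived dendritic cells, was within 2-fold, at 200.4, 178 and 138 CPM in knockout saline, against 195, 114 and 175 CPM in wild-type glycine (interval -0.34 to 0.53).

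IgA, IgM and kappa constant regions were within 2-fold, and IgG2c was higher in knockout saline. Igha, the constant region of IgA, was at 56.4, 75.8 and 66.8 CPM in knockout saline, against 88.3, 62.9 and 60.6 CPM in wild-type glycine. The groups overlap, the log2 difference was -0.09 ± 0.23, and the 95% interval ran -0.57 to 0.39. In the other groups the mean was 216 CPM in knockout glycine and 0.239 CPM in wild-type saline. Ighm, the constant region of IgM, was at 408, 436 and 387 CPM in knockout saline, against 299.8, 409 and 290.5 CPM in wild-type glycine (interval -0.05 to 0.65). Igkc, the kappa light chain, was at 302, 451 and 407 CPM in knockout saline, against 345, 412 and 179 CPM in wild-type glycine (interval -0.20 to 0.82). Igha and Ighm stayed within 2-fold with any 1 library left out, and Igkc did not without wild-type glycine 5 or knockout saline 1. Immunoglobulin genes as a whole held 0.0883%, 0.145% and 0.133% of counts in knockout saline, against 0.116%, 0.165% and 0.0892% in wild-type glycine, and these ranges overlap too.

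Ighg2c, the constant region of IgG2c, was at 26.6, 44.5 and 43.3 CPM in knockout saline, against 6.85, 6.94 and 1.64 CPM in wild-type glycine. No library of either group crossed into the other (log2 difference 2.90 ± 0.44, adjusted p = 0.00143), and the call held with any 1 library left out. It was the only 1 of 12 constant-region genes called, although 2 were higher without wild-type glycine 5 and 1 was lower without wild-type glycine 6. Ighg1, the IgG1 constant region, named after its values were seen, was at 7.02, 11.8 and 8.49 CPM in knockout saline, against 0, 3.67 and 0 CPM in wild-type glycine, which did not pass (log2 difference 2.86 ± 1.11, adjusted p = 0.207). Constant regions of the IgG subclasses resemble each other closely, so reads can be split between them by the authors' quantification. Ighe had 0 counts in all 6 libraries.

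Most variable segments could not be placed. Of 216 such segments 120 passed the filter on low counts, and 5 were higher (4.17%, against 2.16% of all genes), 3 were lower (2.5%, against 3.49%) and none was within 2-fold, with a median log2 difference of 0.00. In 29 of the 120 the knockout saline libraries all lay above, and in 14 all below (12.5% of all genes each way). With only the 2 compared groups in the filter and fit, 70 segments were tested and the median was 0.81. With 1 library left out, it ran from -0.32 (knockout saline 2) to 0.72 (wild-type glycine 5), so no direction is given. With so few calls, the shares called are not read as a result about the segments as a group. Their median 95% interval was 6.03 log2 units wide, against 1.94 over all genes, which leaves most of them undetermined. Igkv14-130, a kappa segment, was at 9.08, 9.17 and 14.3 CPM in knockout saline and at 0 in all 3 wild-type glycine libraries. That is at least 206-fold higher, taking 3 counts over the wild-type glycine group as the floor (adjusted p = 0.00562). Igkv9-123 was at 0 in all 3 knockout saline libraries, against 8.61, 8.02 and 8.50 CPM in wild-type glycine, at least 163-fold lower by the same floor over the knockout saline group (adjusted p = 0.0037). Igkv19-93 was at 0.275, 0.96 and 0.314 CPM in knockout saline, against 20.7, 16.6 and 13.1 CPM in wild-type glycine (log2 difference -5.00 ± 0.73, adjusted p = 0.00159).

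The other called segments, listed to complete the count, were Ighv14-4, Igkv4-50, Igkv4-91 and Igkv6-32 on the higher side and Igkv6-23 on the lower. With wild-type glycine 5 left out, or wild-type glycine 6, or knockout saline 3, the higher segments numbered 2. They numbered 3 without knockout saline 1 or knockout saline 2, and the lower ones numbered 5 without wild-type glycine 4 or knockout saline 2. Variable segments share sequence closely, so these assignments are uncertain where reads could fit several segments.

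Markers of the antibody-making cells were called about as often as genes in general, of which 5.65% were called. None of 13 plasma-cell genes was called by edgeR (1 higher and 2 lower at an unadjusted p below 0.05), DESeq2 called 1 higher, and 4 were within 2-fold (2 without knockout saline 3). Jchain, which joins the units of IgA and IgM, was at 66.0, 96.0 and 107 CPM in knockout saline, against 45.1, 93.9 and 47.0 CPM in wild-type glycine. Its interval of -0.08 to 1.14 reaches past 2-fold upward, so it cannot be placed. Xbp1, the transcription factor of secretory cells, was within 2-fold, at 172, 206 and 189 CPM in knockout saline, against 154, 228 and 226 CPM in wild-type glycine (interval -0.46 to 0.26). Of 16 B-cell genes tested, only Ebf1 was called, lower at 21.3, 28.7 and 27.7 CPM in knockout saline, against 94.99, 59.4 and 54.3 CPM in wild-type glycine (log2 difference -1.43 ± 0.30, adjusted p = 0.0102). Ebf1 is also a factor of fat and stromal cells. Ms4a1, the surface protein CD20 and a defining B-cell marker chosen after its values were seen, was at 18.4, 33.4 and 10.3 CPM in knockout saline, against 25.9, 39.5 and 9.02 CPM in wild-type glycine, with full overlap and no call (interval -1.67 to 1.14).

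**Figure D3:**
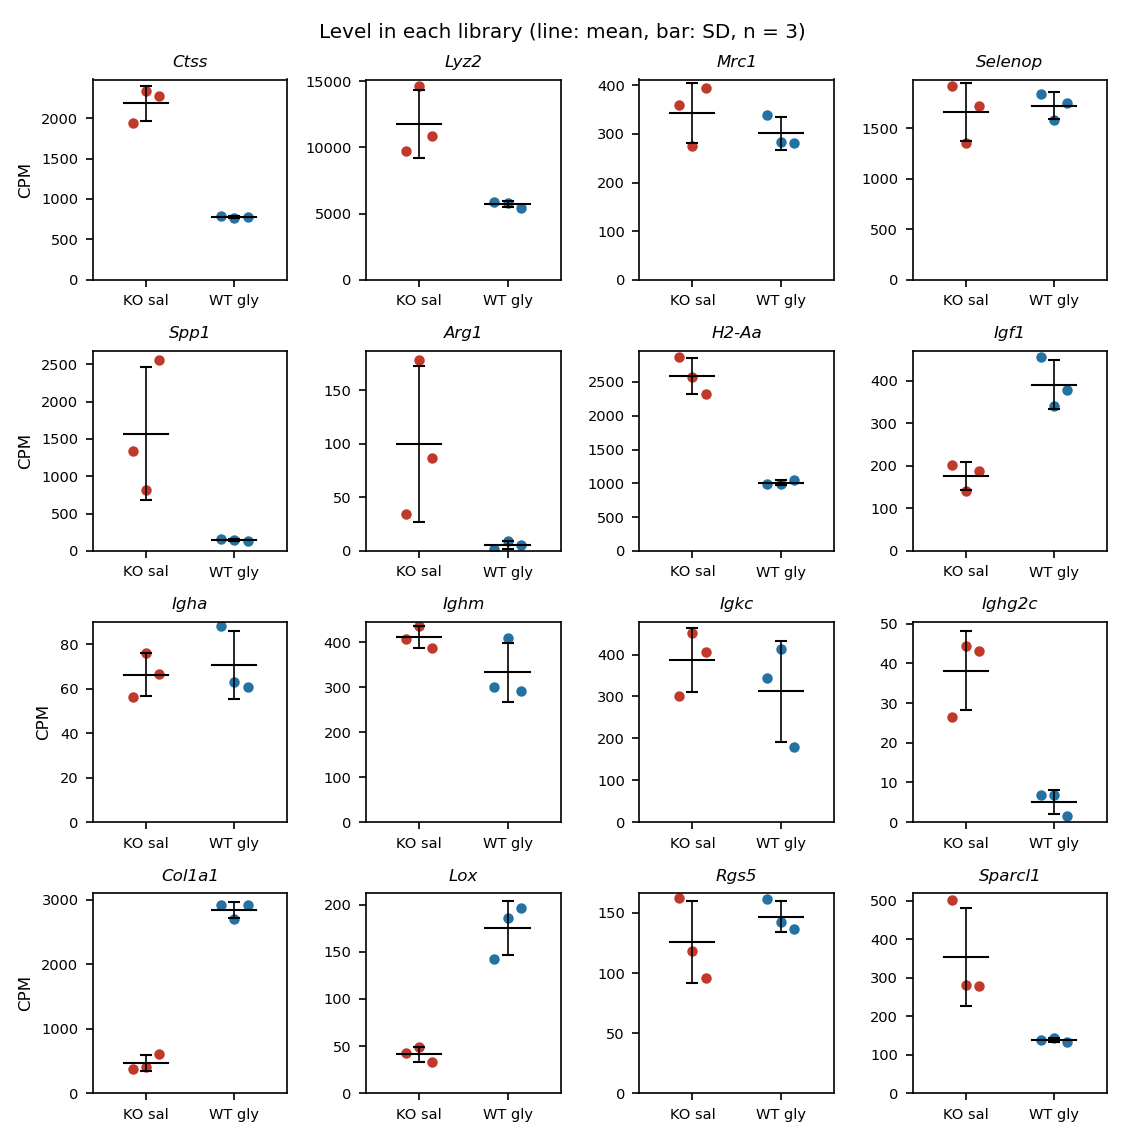
CPM (linear y axes from 0) of 16 genes in each library, with knockout saline left and wild-type glycine right, lines at the mean and bars of 1 SD (n = 3). Ctss, Spp1, H2-Aa and Ighg2c lie higher in knockout saline, Igf1, Col1a1 and Lox lie lower, and Mrc1, Selenop, Igha, Ighm, Igkc and Rgs5 overlap.

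Structural genes of the vessel wall were lower in knockout saline. Of 21 collagen chains tested (of 25 listed), 13 were lower, none was higher, and the median log2 difference was -1.41. Col1a1, the alpha 1 chain of type I collagen, was at 382, 404 and 607 CPM in knockout saline, against 2920, 2702 and 2916 CPM in wild-type glycine. The highest knockout saline library was well under the lowest wild-type glycine library (log2 difference -2.62 ± 0.26, adjusted p = 6.97e-05). Col1a2, its partner chain, was at 264, 312 and 402 CPM in knockout saline, against 1383, 1783 and 1820 CPM in wild-type glycine (log2 difference -2.35 ± 0.26, adjusted p = 0.000131). Col3a1, of type III collagen, was at 448, 487 and 668 CPM in knockout saline, against 1774, 1920 and 2155 CPM in wild-type glycine (log2 difference -1.87 ± 0.22, adjusted p = 0.000168). Col4a3, a chain of basement-membrane collagen, was lower at a log2 difference of -1.89 ± 0.26 (adjusted p = 0.000614). Col4a1, a basement-membrane chain that endothelial cells make, was the only collagen within 2-fold, at 74.5, 36.2 and 56.6 CPM in knockout saline, against 62.4, 64.4 and 62.5 CPM in wild-type glycine (interval -0.69 to 0.33).

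Proteoglycans that coat and space collagen fibrils followed. Of 12 small leucine-rich proteoglycans tested, 9 were lower and none was higher, with a median of -0.99. Fmod, fibromodulin, was at 32.3, 36.7 and 35.7 CPM in knockout saline, against 149, 227 and 197 CPM in wild-type glycine (log2 difference -2.45 ± 0.26, adjusted p = 0.000114). Ogn, osteoglycin, was at 188, 124 and 176 CPM in knockout saline, against 575, 499 and 582 CPM in wild-type glycine (log2 difference -1.76 ± 0.17, adjusted p = 3.97e-05). Omd, osteomodulin, and Aspn, asporin, were lower at log2 differences of -2.77 ± 0.41 and -1.61 ± 0.22, with adjusted p = 0.00127 and 0.000598. Dcn, decorin, was at 4888, 3385 and 3693 CPM in knockout saline, against 8526, 7416 and 7815 CPM in wild-type glycine (log2 difference -0.99 ± 0.18, adjusted p = 0.00316). Podn, podocan, was the only member within 2-fold, and it left the margin without wild-type glycine 4 or knockout saline 3.

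Elastic fibre genes were lower in 10 of 20 cases and higher in none, with a median of -1.24. Lox, the lysyl oxidase that crosslinks collagen and elastin, was at 43.0, 48.8 and 32.8 CPM in knockout saline, against 142, 186 and 196 CPM in wild-type glycine (log2 difference -2.08 ± 0.25, adjusted p = 0.000225). Mfap4 and Fbln5, proteins that organise elastic fibres, were lower at log2 differences of -1.72 ± 0.16 and -1.56 ± 0.18 (adjusted p = 3.78e-05 and 0.00015). Of 19 matricellular proteins, which signal from the matrix, 7 were lower and 2 were higher (1 without any 1 of the libraries other than knockout saline 3). Sparc, a collagen-binding protein, was at 833, 694 and 971 CPM in knockout saline, against 2689, 3341 and 3465 CPM in wild-type glycine (log2 difference -1.93 ± 0.18, adjusted p = 3.97e-05). Ccn1, a heparin-binding signal, was lower at a log2 difference of -1.40 ± 0.18 (adjusted p = 0.000356). All the matrix genes named as lower kept an adjusted p below 0.05 with any 1 library left out.

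**Figure D4:**
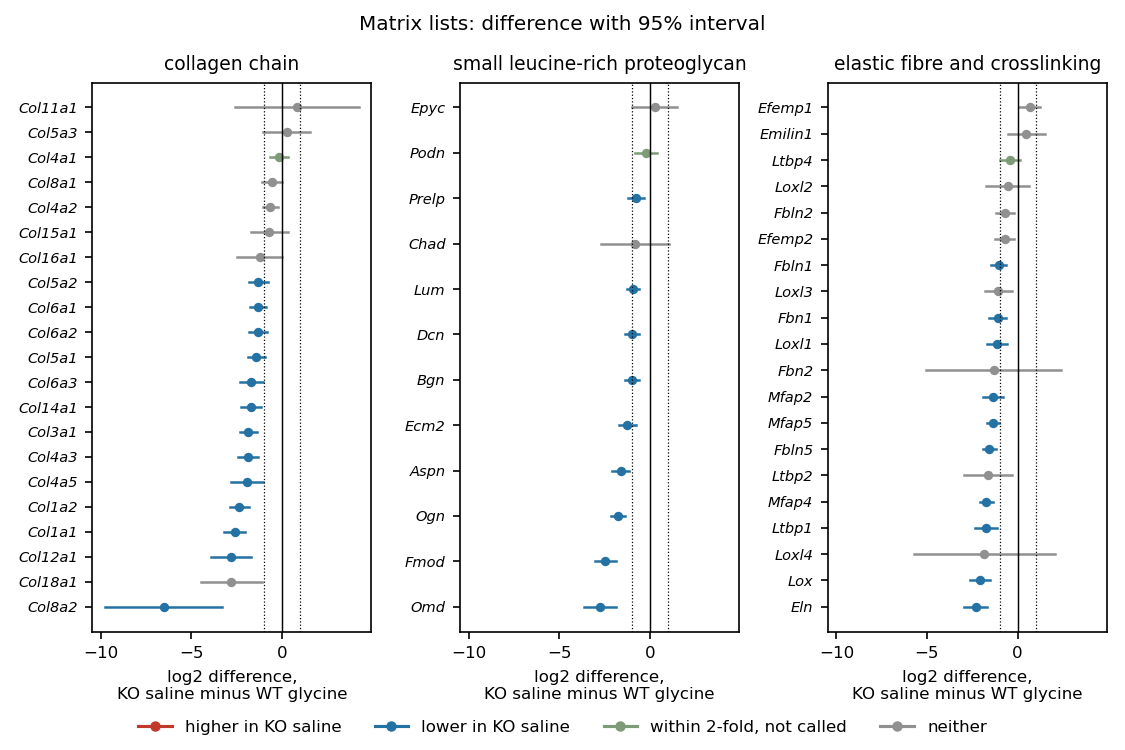
Log2 difference (knockout saline minus wild-type glycine, x axis) of each member of 3 matrix lists with its 95% interval, where dotted lines mark 2-fold. Most points lie left of 0, with list medians of -1.41, -0.99 and -1.24, and only Col4a1, Podn and Ltbp4 are drawn as within 2-fold.

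Marker genes of adventitial fibroblasts, which make much of this matrix, were lower too. Of 22 adventitial fibroblast genes 12 were lower, none was higher and 4 were within 2-fold (2 without knockout saline 1), with a median of -0.83. Serpinf1, the secreted factor PEDF, was at 383, 372 and 424 CPM in knockout saline, against 1471, 1483 and 1532 CPM in wild-type glycine (log2 difference -1.93 ± 0.16, adjusted p = 1.1e-05). Mfap5 and Dpt, matrix proteins of adventitial fibroblasts, were lower at log2 differences of -1.36 ± 0.17 and -1.23 ± 0.17 (adjusted p = 0.00024 and 0.000561). Tcf4, a transcription factor found in many cell types, was within 2-fold, at 196, 146 and 141 CPM in knockout saline, against 182, 184 and 144 CPM in wild-type glycine (interval -0.44 to 0.29). The fibroblast lists contain several of the matrix genes above, so their counts are not separate evidence.

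Contractile smooth muscle genes were lower in 6 of 21 cases, higher in none and within 2-fold in 2 (1 without wild-type glycine 6 or knockout saline 3), with a median of -1.09. Myh11, the smooth muscle myosin heavy chain and a defining marker, was at 1.45, 2.29 and 3.58 CPM in knockout saline, against 19.1, 17.8 and 14.3 CPM in wild-type glycine (log2 difference -2.80 ± 0.43, adjusted p = 0.00152). Acta2, smooth muscle actin, was at 26.0, 27.2 and 38.6 CPM in knockout saline, against 112, 99.9 and 105 CPM in wild-type glycine (log2 difference -1.78 ± 0.22, adjusted p = 0.000229). Myl9, the regulatory light chain of myosin, was at 51.1, 19.6 and 45.2 CPM in knockout saline, against 125, 133 and 120 CPM in wild-type glycine (log2 difference -1.71 ± 0.27, adjusted p = 0.0017). Its RefSeq promoter window, chr2:156775214-156775513 on the plus strand of GRCm38.p6, is shown for the CArG box (capitals), the element read by serum response factor in contractile genes. Here too, only a window that holds a match could be shown.
Myl9: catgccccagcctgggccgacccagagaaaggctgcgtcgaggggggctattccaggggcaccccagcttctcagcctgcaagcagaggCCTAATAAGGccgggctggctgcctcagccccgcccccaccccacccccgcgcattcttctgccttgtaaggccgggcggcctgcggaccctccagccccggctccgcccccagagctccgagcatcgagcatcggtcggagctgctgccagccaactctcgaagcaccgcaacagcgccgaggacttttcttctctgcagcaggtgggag
A CArG box, on either strand, was present in the windows of 1.81% of all promoter-table genes, of 1.66% of tested genes, of 12 of 359 lower genes (3.34%), of 3 of 231 higher genes (1.3%) and of 2 of 17 matched smooth muscle genes.

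Of 9 pericyte genes 3 were lower and none was higher, but the lower genes numbered 1 without knockout saline 2, knockout saline 3 or wild-type glycine 6. All 9 log2 differences were negative, with a median of -1.20. Abcc9 was at 20.2, 25.5 and 18.6 CPM in knockout saline, against 71.1, 75.6 and 77.8 CPM in wild-type glycine (log2 difference -1.81 ± 0.35, adjusted p = 0.00656, edgeR). The Abcc9 call stood with any 1 library left out. Rgs5, a regulator of G-protein signalling that marks pericytes, was the only pericyte gene within 2-fold, at 163, 118 and 96.1 CPM in knockout saline, against 161, 143 and 136 CPM in wild-type glycine (interval -0.73 to 0.28). Tpm1, a tropomyosin, was within 2-fold as well (interval -0.46 to 0.49). Against 58 lower stromal genes stood 5 higher ones. Cnmd, the cartilage and valve protein chondromodulin, was at 24.8, 11.5 and 13.4 CPM in knockout saline, against 0, 0.978 and 1.27 CPM in wild-type glycine (log2 difference 4.42 ± 0.75, adjusted p = 0.00397). Lamb1, a laminin chain, and Prg4, the lubricant lubricin, were higher by 1.63 ± 0.31 and 1.16 ± 0.21 (adjusted p = 0.00568 and 0.00417). Sparcl1, a SPARC-like protein named to complete the count, was higher by 1.35 ± 0.28 (adjusted p = 0.00941, and 0.0503 without knockout saline 1). Thbs1, thrombospondin 1, was at 112, 564 and 247 CPM in knockout saline, against 72.5, 107 and 103 CPM in wild-type glycine (log2 difference 1.70 ± 0.40, adjusted p = 0.0208). Its call leans on the high value in knockout saline 2 (adjusted p = 0.135 without it), and it was also lost without wild-type glycine 4, 5 or 6 (0.0856, 0.0525 and 0.0611).

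Levels of the 2 other groups set the held genes in context. Mrc1 averaged 343 ± 62.2 CPM in knockout saline and 301 ± 33.6 CPM in wild-type glycine, with 234 ± 42.5 CPM in knockout glycine and 123 ± 24.8 CPM in wild-type saline (SD, n = 3 each). Ms4a7 averaged 313 ± 52.6 CPM in knockout saline and 310.4 ± 64.9 CPM in wild-type glycine, with 355 ± 33.4 CPM in knockout glycine and 128 ± 16.6 CPM in wild-type saline. Both genes thus had their lowest mean in wild-type saline. Rgs5 averaged 126 ± 33.9 CPM in knockout saline and 147 ± 12.9 CPM in wild-type glycine, with 123 ± 43.6 CPM in knockout glycine and 320.2 ± 39.7 CPM in wild-type saline. Here wild-type saline had the highest mean, as it did for Tcf4 (281 CPM) and Col4a1 (132 CPM).

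**Figure D5:**
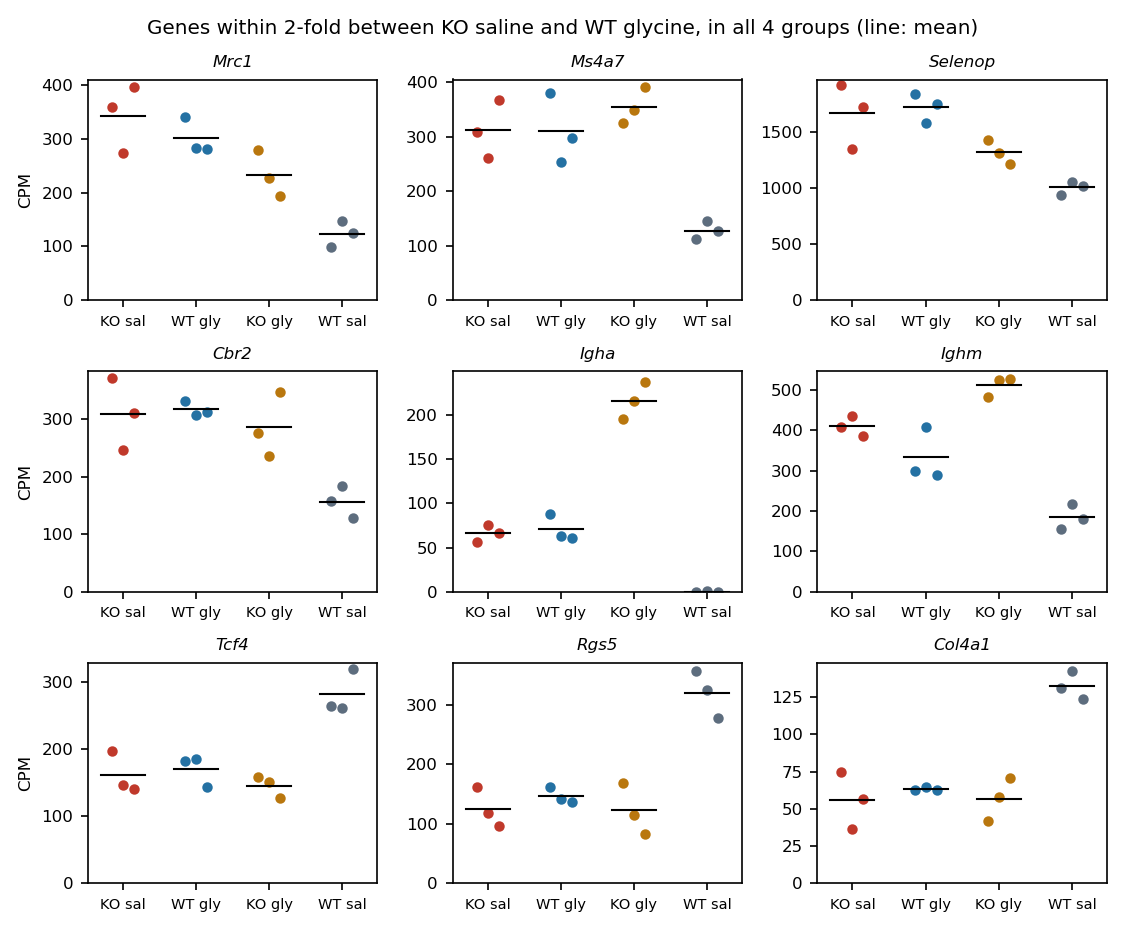
CPM (linear y axes from 0) of 9 genes within 2-fold between knockout saline and wild-type glycine, in all 4 groups with 3 libraries each and a line at the mean. Knockout saline and wild-type glycine lie side by side in every panel, and wild-type saline lies lowest for the macrophage and antibody genes and highest for Tcf4, Rgs5 and Col4a1.

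Endothelial genes were called at a share near that of all genes. Of 29 endothelial identity genes, none was higher, 10 were within 2-fold (34.5%, against 26.2% of all genes; 5 genes without wild-type glycine 6 and 5 without knockout saline 3) and 1 was lower (3.45%, against 3.49% of all genes), Clec14a, a surface lectin of endothelium (-1.03 ± 0.24, adjusted p = 0.0166, but 0.0522 without knockout saline 1 and 0.0923 without knockout saline 2). Nos3, endothelial nitric oxide synthase, was at 6.33, 5.97 and 4.32 CPM in knockout saline, against 1.22, 6.94 and 6.70 CPM in wild-type glycine. The low value of wild-type glycine 4 lets the groups overlap, and the interval of -1.31 to 1.62 leaves Nos3 undetermined (adjusted p = 0.961). Kdr, the main VEGF receptor, chosen after its values were seen, was within 2-fold at 58.5, 28.9 and 36.2 CPM in knockout saline, against 36.3, 39.1 and 40.7 CPM in wild-type glycine (interval -0.53 to 0.71). Ednra, the endothelin receptor of smooth muscle, was lower at a log2 difference of -2.17 ± 0.35 (adjusted p = 0.00173).

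Beyond the lists, the largest differences among genes of at least 5 CPM included several that were near absent in wild-type glycine. Ifi202b, an interferon-inducible DNA-binding protein, was at 33.9, 25.1 and 46.8 CPM in knockout saline, against 0.136, 0.0978 and 0.264 CPM in wild-type glycine (log2 difference 7.67 ± 0.60, adjusted p = 5.58e-06). Cap1, a regulator of actin turnover, was at 113, 127 and 109.8 CPM in knockout saline, against 3.46, 6.75 and 6.75 CPM in wild-type glycine (log2 difference 4.36 ± 0.23, adjusted p = 7.83e-07). The means of the other groups were 15.8 CPM in knockout glycine and 0.104 CPM in wild-type saline for Ifi202b, and 98.3 CPM in knockout glycine and 7.91 CPM in wild-type saline for Cap1. For both genes, then, the knockout groups were high and the wild-type groups low. Eno1b was at 400.1, 498 and 465 CPM in knockout saline, against 0.407, 0.684 and 0.581 CPM in wild-type glycine. Eno1b is a near-identical copy of the glycolysis gene Eno1, so its reads are uncertain. Slc16a3, a lactate exporter, was higher by 4.39 ± 0.70 (adjusted p = 0.00286). On the lower side stood Cfd, the adipocyte protease adipsin, at 3.92, 1.97 and 1.02 CPM in knockout saline, against 167, 139 and 173 CPM in wild-type glycine (log2 difference -6.16 ± 0.38, adjusted p = 2.59e-06). C5ar2, a receptor for complement C5a, was at 0, 1.55 and 0.0393 CPM in knockout saline, against 48.1, 19.3 and 17.0 CPM in wild-type glycine (log2 difference -5.72 ± 1.08, adjusted p = 0.00971). Zfp984, a zinc-finger protein, was lower at a log2 difference of -4.67 ± 0.58 (adjusted p = 0.000561). Eno1b was also high in both knockout groups, at a mean of 268 CPM in knockout glycine and 1.76 CPM in wild-type saline. C5ar2 (0.697 and 18.9 CPM in the same order) and Zfp984 (2.42 and 28.7 CPM) were low in both. In that order Cfd was at 26.6 and 60.2 CPM, and Slc16a3 at 3.77 and 3.975 CPM.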

How the data were processed

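Bulk RNA-seq of captured mRNA from Ang II-infused mice was used, with 12 libraries in 4 groups of 3. KO_glycine replicate 5 carries another glycine dose in its label. It entered the filter, the scaling, the spread and the knockout glycine means given for context. The authors deposited estimated counts per gene and library, and FPKM values (fragments scaled to gene length and library size), per the file headers. The submitters' processing notes name RSEM, Bowtie2 2.2.8, StringTie 1.3.1 and HISAT2 2.1.0 without a role. The genome build is not given in the sources used here. The table has 22013 entries, 112 of which carry no gene symbol (up to 0.0124% of the counts).

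Estimated counts were rounded to whole numbers (10.4% were not whole). They were scaled by TMM, filtered with filterByExpr and fitted with edgeR 4.0.16 (R 4.3.3; robust quasi-likelihood, all 4 groups sharing the spread), with Benjamini-Hochberg adjustment over 13928 genes. CPM values use TMM-scaled library totals, by which 3 counts are 0.118 to 0.206 CPM per library. SE and intervals are those of the fit. The bounds for genes at 0 cover counting error only. Fits were tested on simulated counts. Alternatives used DESeq2 1.42.0, limma 3.58.1 and the deposited FPKM.

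Nothing in the labels says that libraries of a group are separate animals, so p-values measure the spread between these libraries, which may be technical. With 3 against 3, an exact permutation test cannot go below 0.1. The gene lists and members were chosen with earlier results of these data known. Named genes were Glra2, Nos3, Cdh5 and Pecam1, the 10 largest rises and falls (at least 5 CPM, no overlap), and, per list, the smallest adjusted p, the narrowest intervals within 2-fold and the highest mean CPM. Promoter sequences are RefSeq's, matched by symbol.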

Additional observations from a re-analysis of the deposited data

How the results depend on the processing

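No paired analysis was possible because knockout saline carries the numbers 1 to 3 and wild-type glycine 4 to 6. With 3 libraries a group, depth and the spread limit scarce genes most, and the cause of each shift below was not tested. With DESeq2, the genes that differ numbered 1257 (787 with edgeR), 528 were higher, 15 antibody genes were higher and 8 lower; limma-voom gave 10 higher antibody genes. Testing against a 1.5-fold bound left 308 genes that differed, 88 higher and 220 lower, with 16 macrophage genes higher and 1 lower, and 38 stromal genes lower and 2 higher. On log2(FPKM + 1), the genes held within 2-fold numbered 6729 (3651 on counts), and the median of all genes was -0.116; 8 macrophage genes were lower and 36 within, 27 antibody genes higher, 10 lower and 32 within, and 2 stromal genes higher. On log2(FPKM + 0.1), where that median was -0.153, 176 genes were higher, 8 macrophage genes lower, 24 antibody genes higher and 8 lower, and 1 stromal gene higher and 5 within. A 1.5-fold margin kept 827 genes, 8 macrophage, 2 antibody and 2 stromal genes within it, and 2 one-sided tests with adjustment kept 7 stromal genes. Leaving out mitochondrially encoded, haemoglobin and immunoglobulin genes left 29 antibody-list genes, of which 0 were higher, 1 lower and 5 within 2-fold, by construction. Leaving out 1 library at a time gave 490 to 708 genes that differed, 164 to 264 higher, 2 to 5 macrophage genes lower and 3 to 5 antibody genes higher. Single named genes gave 2455 values under alternatives. For the 27 named genes within 2-fold and not called, only the interval was checked, and their direction was not. Counted so, 2259 values kept their status, 186 lost the call or the place within 2-fold, and 8 gained a call. Among the other named genes 2 values reversed. With 1 library left out at a time, Iglv1 ranged from -1.18 to 0.11 (without wild-type glycine 5) and Nos3 from -0.32 (without wild-type glycine 4) to 0.48.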

Other observations

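Clock genes were lower in knockout saline in 4 of 16 cases and higher in none, with a median log2 difference of -0.95 (5.65% of all genes were called). Dbp, an output factor of the clock, was at 0.413, 1.55 and 2.16 CPM in knockout saline, against 19.0, 14.4 and 22.0 CPM in wild-type glycine (log2 difference -3.72 ± 0.57, adjusted p = 0.00196, edgeR). Per3, a period gene, was at 7.29, 9.81 and 11.1 CPM in knockout saline, against 65.2, 31.3 and 33.8 CPM in wild-type glycine (log2 difference -2.20 ± 0.30, adjusted p = 0.000629). In both genes the groups do not overlap. Time of day at collection is not in the labels, and its part was not tested. Heat shock genes were lower in 3 of 12 cases (against 3.49% of all genes), higher in none and within 2-fold in 6 (against 26.2%). Among the lower were Hsph1, a chaperone of the HSP110 kind (-1.16 ± 0.21, adjusted p = 0.00338), and Cryab, alpha-B crystallin (-1.15 ± 0.19, adjusted p = 0.00176). The third was Bag3 (-1.04 ± 0.26, adjusted p = 0.0306). Its call was lost without wild-type glycine 5 (adjusted p = 0.0871), wild-type glycine 6 (0.126), knockout saline 2 (0.153) or knockout saline 3 (0.118).

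Adipocyte genes were lower in 5 of 17 cases (29.4%, against 3.49% of all genes), higher in none and within 2-fold in 5 (29.4%, against 26.2%). Car3, carbonic anhydrase 3 of fat and muscle, was at 31.6, 45.4 and 46.2 CPM in knockout saline, against 352, 262 and 267 CPM in wild-type glycine (log2 difference -2.84 ± 0.21, adjusted p = 6.51e-06). Scd1, a fatty acid desaturase, was lower at a log2 difference of -1.88 ± 0.19 (adjusted p = 6.34e-05). Of 10 lymphatic genes 2 were lower (against 3.49% of all genes), none was higher and 3 were within 2-fold (against 26.2%). Pdpn, podoplanin, which fibroblasts also make, was at 16.6, 17.1 and 15.5 CPM in knockout saline, against 133, 100 and 92.1 CPM in wild-type glycine (log2 difference -2.72 ± 0.21, adjusted p = 6.67e-06). Interferon-response genes were mostly held, with 18 of 29 (62.1%, against 26.2% of all genes) within 2-fold. Unfolded protein response genes were within 2-fold in 12 of 16 cases (75.0%, against 26.2% of all genes). Of the 16, 11 had a negative difference and 5 a positive one. In 5 the knockout saline libraries all lay below, and in 1 all above (12.5% of all genes each way). Herpud1, also within 2-fold, was called lower (-0.58 ± 0.13, adjusted p = 0.0138, edgeR). Its adjusted p was 0.0635 without knockout saline 2 and 0.0633 without knockout saline 3.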
